A study of Homo sapiens with 6 samples.

Results

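Expression of 10 genes, namely genes of the E2F-RB cell-cycle switch and ZNF367, was examined in BCPAP, a human papillary thyroid carcinoma cell line. The cells had received a short hairpin RNA by lentivirus. The genes were the E2F transcription factors E2F1, E2F2, E2F3, E2F4, E2F5, E2F7 and E2F8, the pocket proteins RB1 and RBL1, and ZNF367, which encodes a C2H2 zinc finger protein. They were selected on earlier results of this same comparison, in which ZNF367 was among the genes with the largest rise, so their differences are given as a description and not as a test. Every probe set whose annotation gave exactly 1 symbol and that symbol was 1 of the 10 was taken, which gave 23 probe sets of 49293 that were not controls, and 10 genes of 18132.

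The shCSF2 cells carried a hairpin against CSF2, which encodes the cytokine GM-CSF, and the shCtrl cells a non-targeting hairpin. All cells of either group had gone through lentiviral transduction and then puromycin, which was started 48 hours later and kept for 7 days. There were 3 arrays per group, and the labels call them biological replicates. Not given in the sources used here are the sequence and number of the hairpins and whether cells were pools or clones. The arrays, Affymetrix PrimeView, read transcripts near the 3′ end and give 1 log2 value per probe set. A difference of 1 on this scale is a 2-fold difference, and all differences below are shCSF2 minus shCtrl. The level of CSF2 was not analysed here, since no probe set carried its symbol.

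Array medians lay between 5.77 and 5.79, and with so few arrays the precision of each value is limited. Of the defining genes of thyroid follicular cells, NKX2-1 (mean log2 value 9.37 with shCSF2 and 9.78 with shCtrl) and PAX8 (8.07 and 8.11) were well measured, while TG, TSHR and SLC5A5 stayed at or below a mean of 4.68 in both groups. NKX2-1 was the 1 of 7 measured thyroid markers that passed the test used below for non-member genes. It was lower in shCSF2 cells (-0.42 ± 0.04, log2 difference ± SE, by 2 of 2 probe sets). Of all genes, 16.7% passed that test as higher and 16% as lower. Of 6 epithelial markers, 1 passed, KRT8, which was lower (-0.26 ± 0.05, by 8 of 8 probe sets). KRT7 and KRT18 had means of at least 11.7, whereas CDH1 (3.62 with shCSF2 and 3.52 with shCtrl) and KRT19 (4.13 and 4.04) were dim. PTPRC, the dimmest of the 5 measured leukocyte markers, had means of 2.33 and 2.35. The median of the 23 background control probe sets lay between 2.49 and 2.56 on the 6 arrays. The other leukocyte markers were brighter, CD68 the most (6.89 with shCSF2 and 7.00 with shCtrl). The brightest endothelial markers were CDH5 (6.52 and 6.59) and PECAM1 (6.22 and 6.26). None of the 5 measured leukocyte and 4 endothelial markers passed. Of 6 fibroblast markers, 2 did so and both were lower in shCSF2 cells. They were THY1 (-0.61 ± 0.04, by 2 of 2 probe sets) and COL1A2 (-0.21 ± 0.05, by 1 of 6). THY1 (8.13 with shCSF2 and 8.74 with shCtrl) was the brightest of the 6. The next was PDGFRA (5.128 and 5.155), and COL1A2 was dimmer (4.62 and 4.83). The mean of these 6 genes ranged from 5.10 to 5.19 on the shCSF2 arrays and from 5.34 to 5.44 on the shCtrl arrays. The part of these marker differences in the results below was not tested. The 3′ minus 5′ control difference was 0.02 higher in shCSF2 cells for GAPDH (exact two-sided permutation p = 0.1, the smallest that 3 arrays against 3 allow) and 0.02 higher for ACTB (exact permutation p = 0.6).

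E2F proteins bind DNA mostly as dimers with a DP partner and switch on the genes needed to enter S phase. RB1 and its relatives RBL1 (p107) and RBL2 (p130), the pocket proteins, bind E2F factors and hold these genes silent until cyclin-dependent kinases phosphorylate them. E2F1, E2F2 and E2F3 are classed as activators, which RB1 restrains, and E2F4 and E2F5 as repressors that work with RBL1 and RBL2. E2F7 and E2F8 are atypical repressors that bind DNA without a DP partner and act late in S phase. Several of these genes are themselves E2F targets, so the network feeds back on itself.

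ZNF367 stood apart from the other 9 genes, and it did so by 1 of its 3 probe sets. Probe set 11728101_at read 6.11, 6.08 and 6.28 on the 3 shCSF2 arrays and 4.82, 4.78 and 4.86 on the 3 shCtrl arrays. The lowest shCSF2 array was 1.23 above the highest shCtrl array. The difference was 1.34 ± 0.06, or 2.53-fold, and 0.0852% of all probe sets had a larger one in either direction. Probe set 11728102_a_at read 4.28, 4.25 and 4.29 in shCSF2 and 4.23, 4.23 and 4.13 in shCtrl cells. Its groups did not overlap, but its difference was 0.07 ± 0.04, or 1.05-fold. Probe set 11762629_at read 2.17, 2.30 and 2.43 against 2.25, 2.42 and 2.12, with overlapping groups and a difference of 0.04 ± 0.09. All 6 of its values lay below the array medians of the background control probe sets. The average of all 3 probe sets differed by 0.48. Which part of the transcript each probe set reads was not examined, and the cause of their disagreement was not tested.

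**Figure D1:**
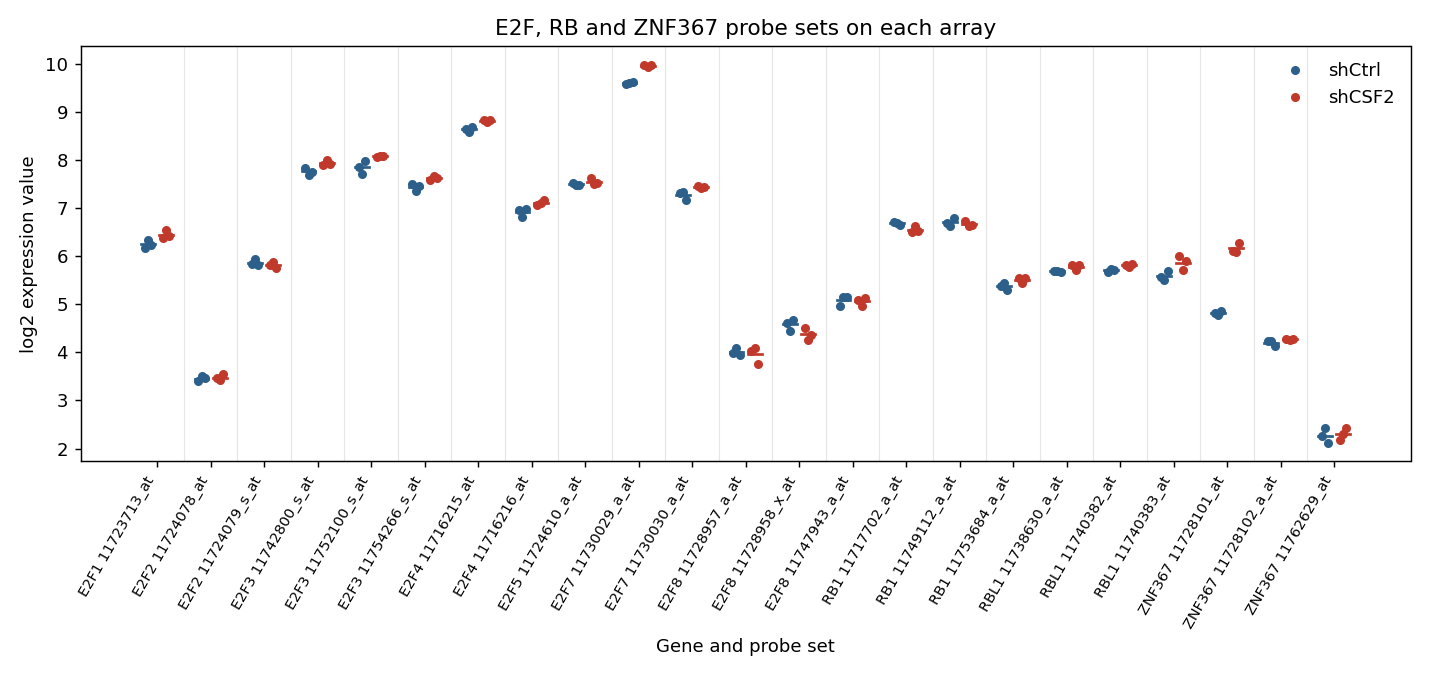
Log2 expression value (vertical axis) of each of the 23 probe sets of the 10 genes (horizontal axis) on 3 shCtrl arrays (blue points) and 3 shCSF2 arrays (red points), with a bar at each group mean. Only ZNF367 probe set 11728101_at shows groups 1.23 apart at the nearest arrays, while the other 22 differ by 0.36 or less.

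Among the activators, E2F3 was higher in shCSF2 cells by each of its 3 probe sets. Probe set 11752100_s_at read 8.06, 8.09 and 8.09 in shCSF2 and 7.86, 7.71 and 7.98 in shCtrl cells, a difference of 0.23 ± 0.07 or 1.17-fold. Probe set 11754266_s_at read 7.59, 7.67 and 7.62 against 7.50, 7.35 and 7.46, a difference of 0.19 ± 0.05. Probe set 11742800_s_at read 7.90, 7.99 and 7.92 against 7.84, 7.69 and 7.76, a difference of 0.17 ± 0.05. In each of the 3 the groups did not overlap, and shCtrl replicate 2 was the lowest array. E2F1, the activator best known for inducing S-phase genes, read 6.37, 6.55 and 6.41 in shCSF2 and 6.17, 6.34 and 6.22 in shCtrl cells by its only probe set. The groups were adjacent without overlap, the nearest arrays 0.03 apart, and the difference was 0.20 ± 0.07. E2F2 showed no separation. Its probe set 11724079_s_at read 5.82, 5.89 and 5.76 against 5.83, 5.94 and 5.83 (-0.04 ± 0.05), and the dim 11724078_at differed by 0.02 ± 0.05.

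Of the repressors that work with pocket proteins, E2F4 was higher by both of its probe sets. Probe set 11716215_at read 8.83, 8.78 and 8.82 in shCSF2 and 8.64, 8.59 and 8.68 in shCtrl cells, a difference of 0.18 ± 0.04 or 1.13-fold. Probe set 11716216_at read 7.06, 7.11 and 7.17 against 6.96, 6.82 and 6.97, a difference of 0.20 ± 0.06, and neither showed overlap. E2F5 read 7.63, 7.50 and 7.52 against 7.53, 7.47 and 7.48, where the lowest shCSF2 array lay below the highest shCtrl array (0.06 ± 0.05).

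The atypical repressors differed from each other. E2F7 read 9.97, 9.93 and 9.98 in shCSF2 and 9.58, 9.59 and 9.62 in shCtrl cells by probe set 11730029_a_at, a difference of 0.36 ± 0.04 or 1.29-fold. The spread within each group was under 0.05, and 9.23% of all probe sets had a larger difference. Its other probe set, 11730030_a_at, read 7.46, 7.41 and 7.44 against 7.31, 7.34 and 7.17, in the same direction without overlap but at 0.16 ± 0.05. E2F8 had a lower mean in shCSF2 cells by each of its 3 probe sets, with overlapping groups in all of them. The largest of these, 11728958_x_at, read 4.50, 4.25 and 4.37 against 4.62, 4.45 and 4.68 (-0.21 ± 0.08). The other E2F8 probe sets differed by -0.05 ± 0.09 and -0.03 ± 0.07. All 3 were dim, with 22.2%, 29.5% and 38.9% of probe sets dimmer, which limits what they can show.

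The pocket protein genes RB1 and RBL1 did not move alike. RB1, the founding tumour suppressor of the family, gave no common direction over its 3 probe sets. Probe set 11717702_a_at read 6.50, 6.63 and 6.53 in shCSF2 and 6.71, 6.70 and 6.64 in shCtrl cells, lower without overlap (-0.13 ± 0.05). Probe set 11753684_a_at read 5.54, 5.43 and 5.54 against 5.39, 5.43 and 5.30, higher but touching at the nearest arrays (0.13 ± 0.05). The third, 11749112_a_at, overlapped (-0.04 ± 0.05), and the average of all 3 was -0.01. RBL1 was higher without overlap by each of its 3 probe sets. The largest difference was that of 11740383_at, which read 5.996, 5.71 and 5.89 against 5.56, 5.51 and 5.68 (0.28 ± 0.08), with 0.02 between the nearest arrays. The other RBL1 probe sets differed by 0.10 ± 0.04 and 0.09 ± 0.04.

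**Figure D2:**
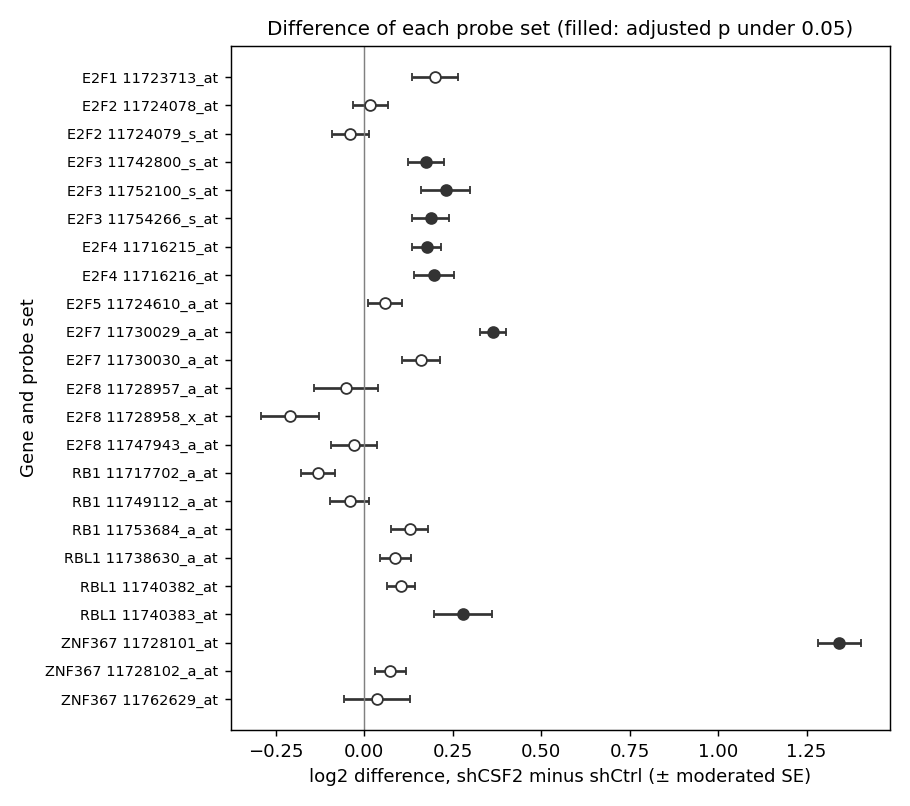
Log2 difference, shCSF2 minus shCtrl (horizontal axis, bars are moderated standard errors, 3 arrays per group), for each probe set of the 10 genes (vertical axis). Filled points are the 8 probe sets with an adjusted p under 0.05 over all probe sets, which lie between 0.17 and 1.34, and open points are the other 15.

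Of the 23 probe sets, 8 passed an adjusted p of 0.05 in limma over all 49293 probe sets, against 29.1% of all probe sets. All 8 were higher in shCSF2 cells, where 15.3% of all probe sets passed as higher and 13.8% as lower. They belonged to 5 of the 10 genes, E2F3 (3 of 3), E2F4 (2 of 2), E2F7 (1 of 2), RBL1 (1 of 3) and ZNF367 (1 of 3). In 13 probe sets all shCSF2 arrays lay above all shCtrl arrays and in 1 below, against 21.3% and 22.5% of all probe sets. Nothing is read from these shares, since the genes were chosen with the comparison known. The median difference of the 23 was 0.10, and that of all probe sets -0.02. With 1 array left out, the count of all probe sets past the threshold fell from 14361 to between 11335 and 11962. The count of 8 also fell, and its size depended on which array was left out. It was 2 without shCSF2 replicate 1, 2 without shCSF2 replicate 3 and 5 without shCSF2 replicate 2. It was 4 without shCtrl replicate 1, 3 without shCtrl replicate 2 and 6 without shCtrl replicate 3. Not all of these probe sets were among the 8. The 5 included RB1 11717702_a_at, which passed as lower (-0.17), and the 3 included E2F1 11723713_at. Only ZNF367 11728101_at and E2F7 11730029_a_at passed in each of these 6 fits.

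E2F sites were sought in the promoters because several of these genes are known targets of E2F factors. RefSeq promoters of GRCh38.p14, from 250 bases before to 50 bases after the start, were matched for 7 of the 10 genes. The 1 window listed for RB1 did not lie at that gene's start and was not used. The letters searched on both strands were TTCCCGC or TTGGCGC, common forms of the E2F site, which do not overlap each other in these windows. At least 1 match was found for 6 of the 7, namely E2F1, E2F2, E2F3, E2F7, RBL1 and ZNF367, and in 9.23% of all 35116 promoters of this length. Unlike the 7 windows, the 35116 were not limited to those at a gene's own start. This share and those below are therefore not matched to the 7. The window of E2F4 held no match. The promoters of ZNF367 and of 3 E2F genes with groups that did not overlap are shown 5′ to 3′ on the gene's strand, with matches in capitals. They lie at chr9:96418321-96418620 (minus strand) for ZNF367, chr12:77065520-77065819 (minus strand) for E2F7, chr6:20401629-20401928 (plus strand) for E2F3 and chr20:33686336-33686635 (minus strand) for E2F1.
ZNF367: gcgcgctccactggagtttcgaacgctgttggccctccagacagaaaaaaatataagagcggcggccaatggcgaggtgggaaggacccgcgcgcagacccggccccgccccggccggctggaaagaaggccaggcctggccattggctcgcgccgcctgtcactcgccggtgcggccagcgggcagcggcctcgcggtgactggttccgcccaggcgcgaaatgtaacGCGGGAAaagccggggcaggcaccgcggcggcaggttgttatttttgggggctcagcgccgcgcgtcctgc
E2F7: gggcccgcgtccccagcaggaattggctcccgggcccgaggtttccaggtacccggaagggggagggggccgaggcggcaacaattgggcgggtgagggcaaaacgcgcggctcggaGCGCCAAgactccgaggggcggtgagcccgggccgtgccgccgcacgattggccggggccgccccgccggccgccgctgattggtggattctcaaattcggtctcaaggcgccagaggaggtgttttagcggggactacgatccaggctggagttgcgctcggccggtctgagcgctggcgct
E2F3: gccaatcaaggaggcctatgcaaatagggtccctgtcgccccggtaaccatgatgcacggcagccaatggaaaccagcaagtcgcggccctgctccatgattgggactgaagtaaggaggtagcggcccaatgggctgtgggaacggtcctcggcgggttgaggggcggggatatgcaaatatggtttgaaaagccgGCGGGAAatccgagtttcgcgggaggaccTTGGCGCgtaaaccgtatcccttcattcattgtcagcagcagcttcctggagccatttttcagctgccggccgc
E2F1: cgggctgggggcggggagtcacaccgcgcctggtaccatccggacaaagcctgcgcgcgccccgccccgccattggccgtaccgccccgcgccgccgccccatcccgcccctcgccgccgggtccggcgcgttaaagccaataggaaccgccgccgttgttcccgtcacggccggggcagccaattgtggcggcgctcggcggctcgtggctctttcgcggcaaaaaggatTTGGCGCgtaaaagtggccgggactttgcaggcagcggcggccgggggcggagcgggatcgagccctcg
The match nearest the start began 21 bases before it in ZNF367, 24 in E2F3, 19 in E2F1 and 133 in E2F7. E2F3 held 2 matches and the others 1 each. These are matches of letters and no measurement of binding was made. CCAAT boxes, searched as CCAAT on both strands, were present in 4 of the 7 windows (ZNF367, E2F7, E2F3 and E2F1) and in 34.6% of all promoters. The letters TTTGAA, a form of the CHR element of late cell-cycle genes, occurred in 1 of the 7, E2F3, and in 15.2% of all promoters.

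The genes next to ZNF367 did not share its difference. In the RefSeq order, 3 of the 6 nearest genes were measured. SLC35D2, a nucleotide sugar transporter gene on one side, differed by 0.01 ± 0.05, and CDC14B, a phosphatase gene on the other, by 0.001 ± 0.05. HABP4, which encodes a hyaluronan-binding protein, read 7.35, 7.30 and 7.36 in shCSF2 and 7.47, 7.44 and 7.62 in shCtrl cells (-0.17 ± 0.05) and narrowly missed the threshold (limma adjusted p = 0.0507 over all genes). With its 2 probe sets averaged it was -0.28 and passed (limma adjusted p = 0.00306). Genes were also ranked by how closely their values, centred on the shCtrl mean, followed ZNF367 11728101_at over the 6 arrays. The 6 nearest were G3BP1, a stress granule protein gene, the cystine transporter gene SLC7A11, the metalloproteinase gene MMP10, the glycan-processing gene MGAT2, the kinase gene HIPK2 and the chemokine gene CXCL5. Their root mean square distance from ZNF367 ran from 0.08 for G3BP1 to 0.13 for CXCL5, and their differences from 1.23 to 1.48. None of the 6 was in the cell-cycle lists used here, and nothing is read from this. The ranking favours genes with a difference near that of ZNF367, and no gene of those lists lay between CCNE2 (0.69) and POLE2 (2.01).

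**Figure D3:**
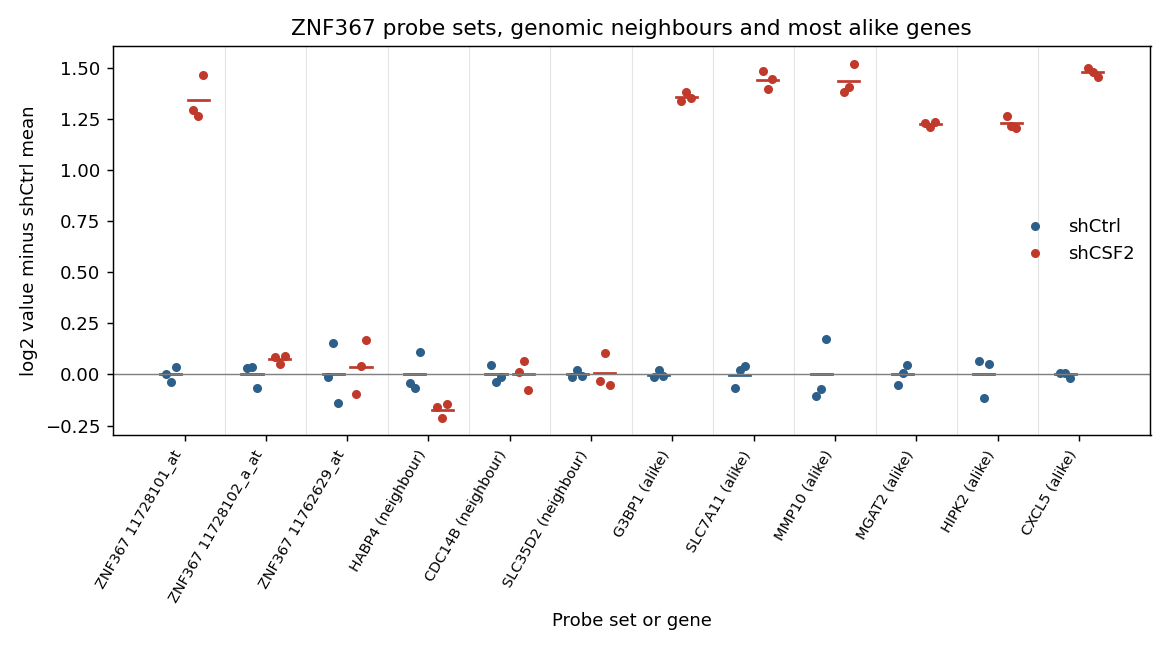
Log2 value minus the gene's shCtrl mean (vertical axis) for the 3 ZNF367 probe sets, 3 measured neighbours in the genome and the 6 genes with the most similar profile (horizontal axis), on 3 shCtrl arrays (blue) and 3 shCSF2 arrays (red), with bars at group means. ZNF367 11728101_at lies with the 6 alike genes between 1.23 and 1.48, whereas its other probe sets and the neighbours lie between -0.17 and 0.07.

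The wider switch was described with 4 gene lists. For these genes, which are not among the 10, each gene was represented by its brightest probe set and tested with limma over 18132 genes, of which 16.7% passed as higher and 16% as lower, with a median difference of -0.03. Of 13 E2F partners (DP subunits, the remaining E2F and pocket protein genes, and the MuvB core with its MYB and FOXM1 partners), 4 rose and 6 fell, with a median of -0.04. TFDP1, the main dimer partner of the E2F activators, rose most. By probe set 11725349_s_at it read 9.28, 9.27 and 9.26 in shCSF2 and 8.61, 8.61 and 8.57 in shCtrl cells, a difference of 0.68 ± 0.03 or 1.60-fold (limma adjusted p = 3.53e-05). Of its 5 probe sets 4 passed as higher, from 0.48 to 0.68, and the fifth overlapped (-0.12 ± 0.11). TFDP2, the alternative DP subunit gene, fell by its brighter probe set, which read 8.31, 8.31 and 8.33 against 8.57, 8.57 and 8.60 (-0.27 ± 0.03). Its other probe set did not pass (0.07 ± 0.05), and with both averaged the call was lost (-0.10, limma adjusted p = 0.0659, the highest of all settings, the lowest being 1.57e-06).

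E2F6 and RBL2, the relatives of the 10 genes outside that group, moved in opposite directions. E2F6, a repressor that acts without pocket proteins, passed as higher by all 5 of its probe sets. Its brightest, 11746243_x_at, read 7.09, 7.05 and 7.07 in shCSF2 and 6.71, 6.77 and 6.81 in shCtrl cells (0.30 ± 0.04, limma adjusted p = 0.00111 over genes), and the 5 differences ran from 0.30 to 0.46. RBL2, the pocket protein gene most associated with resting cells, passed as lower by 3 of its 4 probe sets. Probe set 11718165_a_at read 7.22, 7.18 and 7.14 against 7.63, 7.59 and 7.48 (-0.39 ± 0.05, limma adjusted p = 0.0012 over genes), and the fourth, 11748255_a_at, was lower without passing (-0.13 ± 0.05). TFDP1, E2F6 and RBL2 kept their call and direction in all 16 alternative settings. E2F6, TFDP2 and the genes named next from this list were chosen after their values were seen, apart from MYBL1 and RBBP4. MYBL1, a MYB-family gene, fell (-0.56 ± 0.05), as did the histone-binding MuvB subunit gene RBBP4 (-0.31 ± 0.04), MYBL2 (-0.23 ± 0.06) and LIN52 (-0.21 ± 0.05), and LIN9 (0.30 ± 0.04) and LIN37 (0.14 ± 0.04), also of MuvB, rose. MYBL2, LIN52 and LIN37 each passed in only 11 of 16 alternative settings. FOXM1, the driver of mitotic genes, did not pass by its brightest probe set, where the groups overlapped (-0.04 ± 0.05). Its probe sets 11725442_a_at (-0.12 ± 0.06) and 11734028_a_at (-0.11 ± 0.05) were lower without overlap, but did not pass either.

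**Figure D4:**
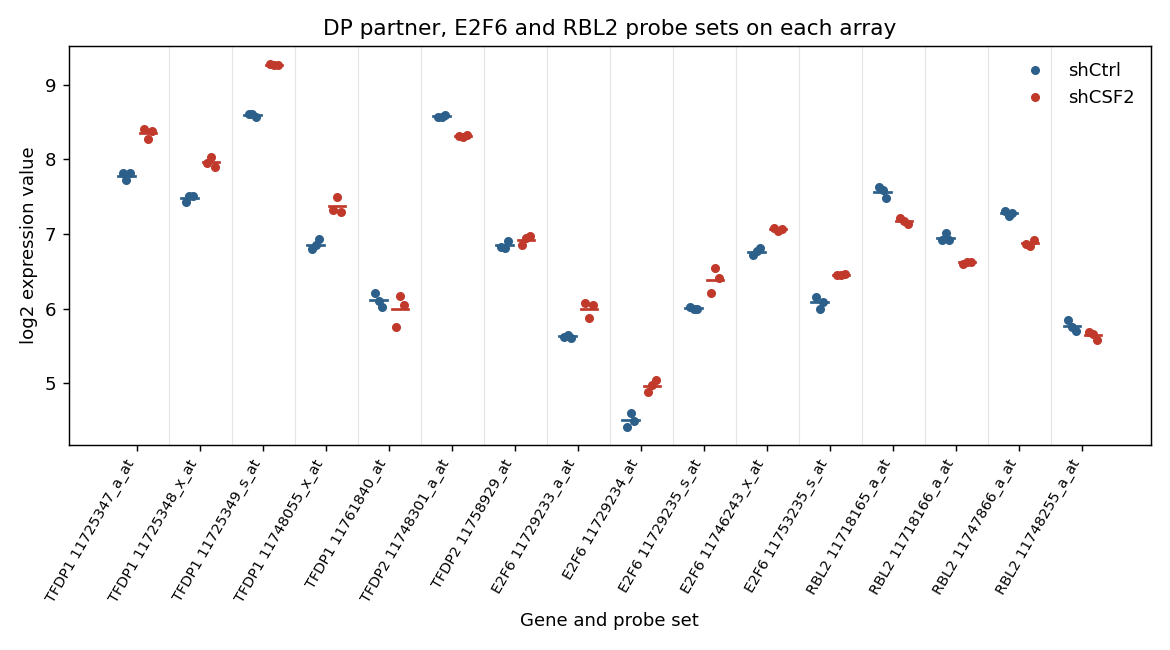
Log2 expression value (vertical axis) of each probe set of TFDP1, TFDP2, E2F6 and RBL2 (horizontal axis) on 3 shCtrl arrays (blue points) and 3 shCSF2 arrays (red points), with a bar at each group mean. All 5 E2F6 probe sets and 4 of 5 for TFDP1 are higher in shCSF2 cells without overlap, and all 4 of RBL2 are lower.

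Upstream of the switch, 17 of 18 listed cyclins, kinases and inhibitors were measured, of which 1 rose and 8 fell, with a median of -0.16. The gene that rose was CCNE2, a cyclin of the kinase CDK2 and itself an E2F target, which was 5.30 in shCtrl and 5.99 in shCSF2 cells (0.69 ± 0.07, with both of its probe sets past the threshold). CDK2 itself fell (-0.60 ± 0.03, 3 of 3 probe sets). The kinase inhibitor gene CDKN1C fell by the most (-0.87 ± 0.06, 3 of 3 probe sets). SKP2, which marks the inhibitor p27 for degradation, also fell by 1 of its 2 probe sets (-0.45 ± 0.04), and so did CDKN1B, the gene of p27, chosen after its value was seen (-0.37 ± 0.04). The kinase genes that act first on RB1, CDK4 (0.09 ± 0.03) and CDK6 (0.08 ± 0.03), did not pass by their brightest probe sets. In both, all shCSF2 arrays lay above all shCtrl arrays. CDK6 passed as higher by 1 of its 4 probe sets, and with all averaged (0.10, limma adjusted p = 0.0444). Their cyclin genes CCND1 (0.05 ± 0.04), CCND2 (-0.10 ± 0.10) and CCND3 (-0.06 ± 0.04) did not pass. These 5 kinase and cyclin genes were also named after their values were seen.

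Downstream, the genes that E2F factors induce at the start of S phase and those of mitosis moved apart. Of 50 listed G1/S targets, 47 were measured, and 28 rose and 6 fell, with a median of 0.19. POLE2, a DNA polymerase epsilon subunit gene with 1 probe set, rose most (2.01 ± 0.06), followed by the GINS subunit gene GINS3 (0.66 ± 0.06), the fork protection gene TIPIN (0.59 ± 0.06, 3 of 3 probe sets) and the sliding clamp gene PCNA (0.49 ± 0.04, by 1 of 2 probe sets). The 6 that fell were MCM6, TK1, GINS1, RRM2, DSCC1 and FBXO5, between -0.13 and -0.36, named after their values were seen. FBXO5 passed in only 8 of 16 alternative settings and DSCC1 in 11. Among the 28 that rose, POLA2 and GINS4 passed in only 7 of 16 and EZH2 and RRM1 in 8, also named after their values were seen. Of 30 targets of the MuvB complexes in G2 and mitosis, 23 fell and 0 rose, with a median of -0.24. Those with the largest falls were TOP2A, which untangles DNA (-0.67 ± 0.03), PRC1, which bundles spindle microtubules (-0.67 ± 0.03), KIF2C, a kinesin (-0.54 ± 0.04), and ANLN, which acts in cytokinesis (-0.48 ± 0.06). An earlier look at these data had already shown these directions, so the lists add no independent support. In a bulk sample, a change in the share of cells in a phase and a change in RNA per cell cannot be told apart.

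**Figure D5:**
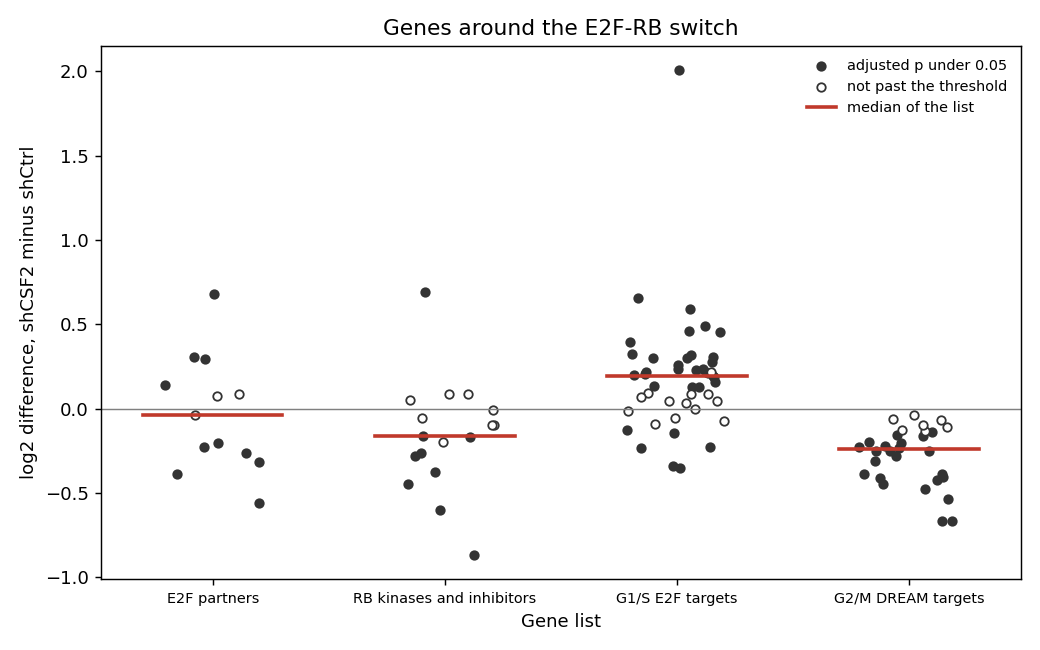
Log2 difference, shCSF2 minus shCtrl (vertical axis), of each measured gene in 4 lists (horizontal axis), with points filled where the adjusted p over all genes was under 0.05 and a red bar at the list median. The medians are -0.04 for E2F partners, -0.16 for RB kinases and inhibitors, 0.19 for G1/S targets, where POLE2 is the top point at 2.01, and -0.24 for G2/M targets.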

How the data were processed

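Per the submitters' processing notes, RMA, oligo and limma were used, with no version or role given. The deposited values, made by the authors, are log2 summaries, 1 per probe set and array, already normalised between arrays, and RMA compresses differences at low signal. All 6 columns were mapped to samples by name. Of 49395 probe sets, 102 controls were left out, 44988 carried 1 symbol, 1832 several and 2473 were not listed in the platform annotation. Identifiers were checked against RefSeq of GRCh38.p14, which left 27 of the 44988 unmatched and changed 0 symbols.

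Probe sets, and separately genes by their brightest probe set, were fitted in R 4.3.3 with limma 3.58.1 (lmFit, eBayes), with Benjamini-Hochberg adjustment, a threshold of 0.05 and no filter or block. The fit was tested on simulated data. Figures used matplotlib 3.10.9. The 10 genes and all lists were chosen with earlier results of these data known, and no list was tested as a set. The rule for named genes took every probe set of the 10 genes, the 4 passing genes with the largest change in each pathway list, or the 2 brightest where none passed, and the 6 genes closest to ZNF367 in profile. Alternatives were quantile, median and cyclic loess normalisation, array weights, robust estimation with a variance trend, filters on dim rows, other ways to represent a gene, a replicate block, and leaving out each array. Same-numbered arrays deviated together with correlations of 0.034, 0.051 and 0.033, so the numbers were not treated as pairs.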

Additional observations from a re-analysis of the deposited data

How the results depend on the processing

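The number of 10-gene probe sets past the threshold was 8, and between 2 and 6 when 1 array was left out. In the other alternatives it ran from 6 to 12. It rose to 10 with a variance trend and robust estimation. With a mean log2 value of at least 5 it was 12, and with a mean of at least the median 9. With either filter, RB1 11717702_a_at passed as lower (-0.13). Most of the 14 alternatives tried could not move a value of the 23 probe sets by the spread between replicates. The variance trend, the replicate block and the filters, where they kept a probe set, leave its difference unchanged. Leaving out 1 array cannot move it that far. With quantile, median or cyclic loess normalisation or array weights, no value moved by as much as that spread. The count of 1 riser among RB kinases and inhibitors became 3 with a variance trend and robust estimation. It was 2 with a mean log2 value of at least 5, with a mean of at least the median, or with all probe sets averaged. CCNE2, the riser of the main fit, passed in all 15 alternatives that kept it. The filter at the median dropped CCNE2, so the 2 risers there were other genes. CDK4 and CDK6 each passed in 3 of 16 alternatives. The other list counts stayed within 1.5 times in all 16 alternatives. With the most variable probe set, EZH2 was -0.22, GINS4 -0.049, CDT1 0.35 and CDC45 0.22, each with its sign turned, and CDC45 was 0.11 with all probe sets averaged. These are the turns among list genes that passed in either setting. Among genes that passed in neither, UHRF1 turned to -0.25, RFC4 to -0.067, CHAF1B to -0.025 and CDC20 to 0.060 with the most variable probe set. With all probe sets averaged, UHRF1 (-0.062), RFC4 (-0.0029), CDT1 (0.074) and CDC25A (0.0070) also turned, without passing. The cause of these turns was not tested beyond the change of probe set. With the replicate block, which these numbers do not support as pairs, 6 of the 23 probe sets and 5469 genes passed, against 8 and 5930 without it. All 3 E2F3 probe sets and E2F4 11716216_at lost the call, and E2F1 (0.20) and E2F8 11728958_x_at (-0.21) gained one. The block moved no list count by over 1.5 times. Each array correlated best with the array of its own number, but no correlation was above 0.051. For shCSF2 replicate 3 it was 0.033 against 0.03 with shCtrl replicate 1. Such values do not settle whether arrays were paired, and the design does not say. Dim probe sets, among them those of E2F8 and 2 of ZNF367, limit what low differences can show.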
